A study of Mus musculus with 6 samples.

Results

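The genes described here make, sense, move and export cholesterol. They were compared between H10 cells, which fused into multinucleated osteoclasts, and C8 cells, which did not fuse. The list held 32 genes, chosen for their place in the pathway: enzymes from the mevalonate steps to cholesterol, the sterol sensors with the SREBP transcription factors, the transfer and esterification of sterol, and the LXR receptors with their efflux and uptake targets. Of these, 29 were the single symbol of at least 1 array feature, among 19930 such genes in all. No feature was named for Acat2, Nr1h2 or Soat1, and these are not analysed here. Each line was measured on 3 Mouse Gene 1.0 ST arrays after 2 days with sRANKL at 60 ng/mL, and no array of unstimulated cells was analysed here. Both lines derive from RAW264.7, a mouse macrophage line, and carry Lifeact-mEGFP from a retroviral vector with puromycin resistance. By the methods they were picked by limiting dilution, so fusing and non-fusing cells are each represented by 1 line. Any difference between H10 and C8 is a difference between these lines, and fusion capacity and other properties of the lines cannot be told apart. The sources do not say if the arrays of a line stem from separate cultures, so the spread that a p-value is set against is that of these arrays alone and may be technical.

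Cells build cholesterol from acetyl-CoA through mevalonate and the isoprenoids to squalene, which is closed into lanosterol and trimmed to cholesterol. When membrane sterol falls, SCAP carries SREBP2 from the endoplasmic reticulum to the Golgi, and the released fragment switches on the genes of synthesis. INSIG proteins hold SCAP back when sterol is plentiful. When sterol accumulates, oxysterols activate the LXR receptors, which raise the exporters ABCA1 and ABCG1, apolipoprotein E and the ubiquitin ligase MYLIP, which removes lipoprotein receptors. Osteoclasts and other macrophage-derived cells take up much lipoprotein cholesterol, and membrane cholesterol is known to matter for osteoclast fusion and survival.

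Values are log2 RMA values as deposited, so a difference of 1 is a 2-fold difference. Differences are given as H10 minus C8, with a 95% confidence interval where shown, and each was tested with limma on all 35545 features with Benjamini-Hochberg adjustment. A gene passed the test at an adjusted p under 0.05. Array medians were 7.65 to 7.74. The replicate 1 arrays of both lines stood apart on the second principal component, at 17.6 for H10 and 29.3 for C8 against -17.8 to -7.69 on the other arrays. Of 7 macrophage markers 1 passed the test, Adgre1, which was higher in H10 cells. At an unadjusted p under 0.05, 4 were higher, Itgam, Fcgr1 and Ptprc being the others, with log2 differences of 0.51, 0.56 and 0.17 and no overlap of the lines. Cd68, Csf1r and Lyz2 read between 13.2 and 14.1 on every array. Csf1r was lower in H10 cells with no overlap (log2 difference -0.09) and did not pass. Of 8 osteoclast markers 6 passed, all higher in H10 cells, against 1.85% of all genes called higher. Mmp9 and Calcr did not pass, with log2 differences of -0.34 and 0.07 and overlap of the lines. None of 6 fibroblast and osteoblast markers passed by limma, 1 being higher and 1 lower at an unadjusted p under 0.05. The higher one was Dcn, which read 8.46, 7.19 and 7.74 for H10 against 6.21 to 6.50 for C8. The part of these markers in the results that follow was not tested.

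Among the 29 genes, the single one that passed was Nr1h3, which encodes LXRα, the LXR receptor prominent in macrophages. Its log2 values were 9.22, 9.11 and 9.03 for H10 against 8.61, 8.50 and 8.57 for C8. Each H10 array lay above each C8 array. The mean of H10 cells was 9.12 ± 0.10 (SD, n = 3) and that of C8 cells 8.56 ± 0.06 (SD, n = 3). H10 cells were thus 1.47-fold higher (log2 difference 0.56, standard error 0.07, adjusted p = 0.0155 by limma). The call was lost without H10 replicate 2 or 3 and without C8 replicate 2 or 3, with an adjusted p = 0.0546 to 0.0779, while the difference stayed at 0.53 to 0.61, and without the replicate 1 arrays of both lines it was 0.54 with an adjusted p = 0.0615. One gene higher of 29 stands against 1.85% of all genes called higher, and 0 of 29 lower against 1.04% called lower, so neither count of calls is a result about the list. At an unadjusted p under 0.05, 1 of the 29 (3.45%) was higher and 5 (17.2%) were lower, against 6.1% and 7.67% of all genes. Of all 19930 genes 10200 were at least as bright as the dimmest of these 29, and their shares at that p were not computed. Among the 29 the count lower at that p was 2 without H10 replicate 1 and 1 without C8 replicate 1. It was 3 to 7 when 1 of the other arrays was left out.

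The synthesis genes had small differences, mostly below 0, and none passed the test. Of the 17 enzymes of the mevalonate and sterol steps measured, 16 had a lower mean in H10 cells, with a median log2 difference of -0.19 and a range of -0.52 to 0.18. Over all 29 genes, 26 had a lower mean and the median was -0.15. Over all 19930 genes the median was -0.03, and 60.6% had a lower mean in H10 cells. That share was not computed for genes as bright as the 29. For every one of the 29 genes the 95% confidence interval lay within a 2-fold difference in either direction, and for 23 it held 0. RNA was taken from whole cultures, so fewer cells with a transcript and less of it per cell cannot be told apart.

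One array stood out within H10 cells. H10 replicate 1 was the lowest of the 3 H10 arrays for all 17 synthesis genes and for 27 of the 29 genes, the exceptions being Scap and Nr1h3. Over all genes it was the lowest H10 array for 31.1%, and for 35.5% of the 10200 genes at least as bright as the dimmest member. For 15 of the 17 synthesis genes it was the lowest of all 6 arrays. Measured against the mean of H10 replicates 2 and 3, the log2 value of H10 replicate 1 had a median gap of -0.38 for the synthesis genes, with a range of -0.60 to -0.12. Over all genes the median gap was 0.02, with 5th and 95th percentiles of -0.23 and 0.24, and 13 of the 17 synthesis genes lay below that 5th percentile. For the genes at least as bright as the dimmest member the 5th percentile was -0.275. Of the 13, Fdps and Lss lay above it, with gaps of -0.25 and -0.24. The median SD of the synthesis genes was 0.22 over the 3 H10 arrays, 0.08 over the 3 C8 arrays and 0.04 over H10 replicates 2 and 3.

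**Figure D1:**
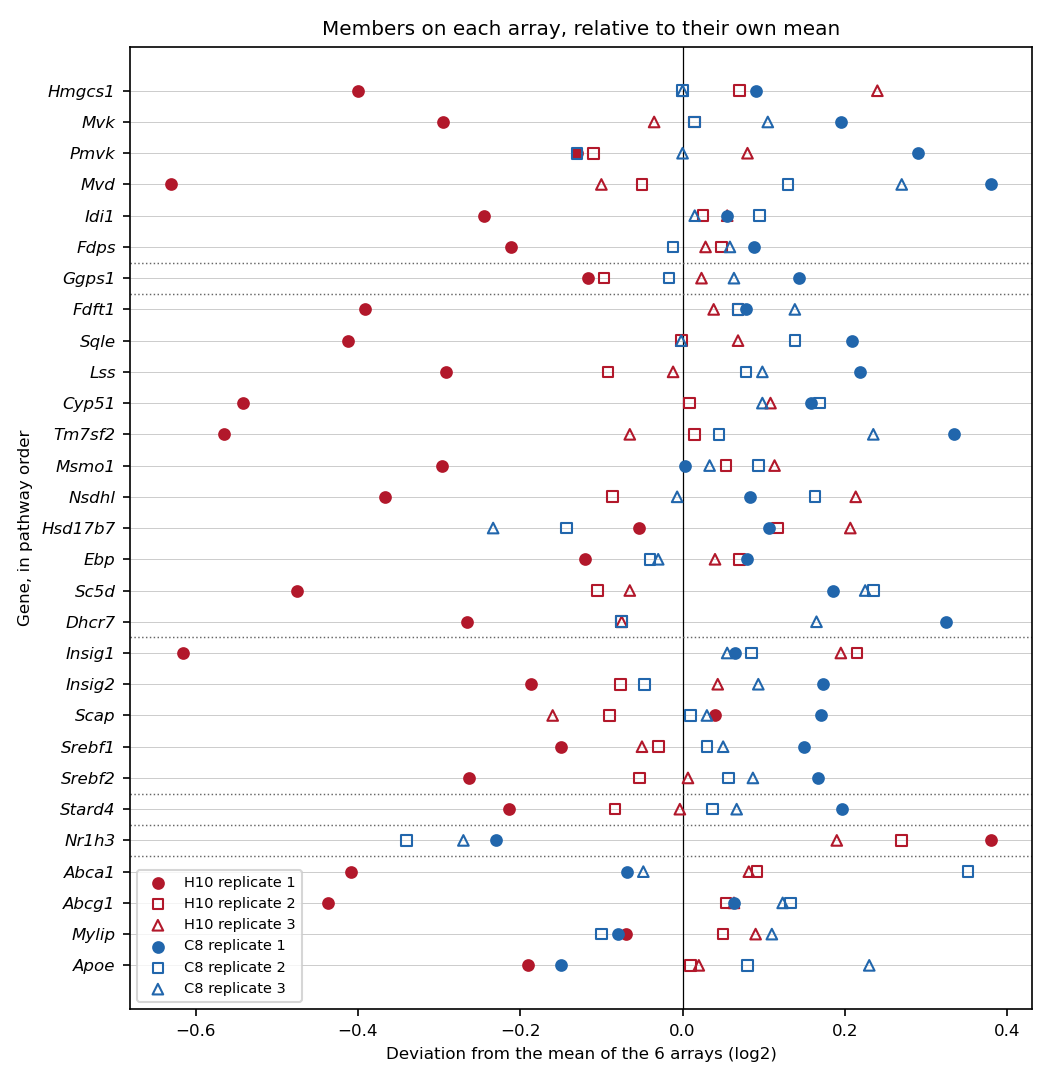
Deviation of each array from the mean of the 6 arrays (x axis, log2) for the 29 measured genes in pathway order (y axis); red marks are H10 and blue marks C8 arrays, filled circles are replicate 1, and dotted lines part the roles. H10 replicate 1 is the leftmost H10 mark for 27 of the 29 genes.

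C8 replicate 1 was the highest C8 array for 11 of the 17 synthesis genes and 18 of the 29 genes, against 41.6% of all genes. Its gap to the mean of the other C8 arrays had a median of 0.12 for the synthesis genes. The genes at least as bright as the dimmest member had a median gap of 0.10 on this array, so a shift of this size was general there. Without H10 replicate 1 the median difference of the 29 genes was -0.07, and without the replicate 1 arrays of both lines it was -0.06. In the latter comparison 20 of the 29 genes were lower and 9 higher in H10 cells, and of the synthesis genes 11 were lower and 6 higher, with a median of -0.04. What set H10 replicate 1 apart was not tested.

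The mevalonate steps lead from acetyl-CoA to farnesyl diphosphate. Hmgcs1, which encodes the cytosolic HMG-CoA synthase that opens the committed route, had log2 values of 10.54, 11.01 and 11.18 for H10 against 11.03, 10.94 and 10.94 for C8. Its lowest and its highest values both came from H10 arrays, and the lines overlapped (log2 difference -0.06, interval -0.44 to 0.32). Mvd, the decarboxylase that forms isopentenyl diphosphate, showed the largest difference of the 17 synthesis genes. Its values were 10.01, 10.59 and 10.54 for H10 against 11.02, 10.77 and 10.91 for C8. All H10 arrays lay below all C8 arrays, and the 1.43-fold lower mean in H10 cells did not pass (log2 difference -0.52, standard error 0.16, adjusted p = 0.253 by limma). Without H10 replicate 1 the difference was -0.34, and without the replicate 1 arrays of both lines -0.28.

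The kinases of the mevalonate steps, Mvk and Pmvk, differed by -0.21 and -0.11, and the isomerase gene Idi1 and the farnesyl diphosphate synthase gene Fdps by -0.11 and -0.09. For Idi1 a further feature gave -0.10. Ggps1, which takes farnesyl diphosphate to geranylgeranyl diphosphate for the lipid tails of small GTPases, a step known to be needed by resorbing osteoclasts, differed by -0.13 (interval -0.30 to 0.05). Its gap on H10 replicate 1 was -0.08, nearer 0 than that of any of the 17 enzymes.

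The sterol steps begin with squalene. Fdft1, squalene synthase, differed by -0.19, and its other feature by -0.22. Sqle, squalene epoxidase and a rate-limiting enzyme of the pathway, had values of 11.60, 12.01 and 12.08 for H10 against 12.22, 12.15 and 12.01 for C8. H10 replicate 1 was low and the remaining arrays overlapped (log2 difference -0.23, interval -0.56 to 0.10). Lss, which closes the ring to lanosterol, had 11.01, 11.21 and 11.29 for H10 against 11.52, 11.38 and 11.40 for C8, with no overlap (log2 difference -0.26, interval -0.48 to -0.05, adjusted p = 0.303 by limma). Cyp51, the lanosterol demethylase, had the widest gap of the synthesis genes on H10 replicate 1, with 10.17 there. The other H10 arrays read 10.72 and 10.82, and those of C8 cells 10.81 to 10.88.

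Sc5d, the desaturase of a late step, was the synthesis gene with the lowest p. Its values were 10.97, 11.34 and 11.38 for H10 against 11.63, 11.68 and 11.67 for C8. The C8 arrays were tight and every H10 array was below them, a 1.35-fold difference that did not pass over all features (log2 difference -0.43, standard error 0.12, adjusted p = 0.171 by limma; 0.0738 to 0.362 over 15 alternatives). Without the replicate 1 arrays the difference was -0.32. Tm7sf2, a sterol reductase, had 8.50, 9.08 and 9.00 for H10 against 9.40, 9.11 and 9.30 for C8, also without overlap (log2 difference -0.41, adjusted p = 0.401 by limma). Its difference was -0.23 without H10 replicate 1. Those of Sqle, Lss and Cyp51 were -0.08, -0.18 and -0.08 without that array. The demethylation genes Msmo1 and Nsdhl differed by -0.09 and -0.16, Ebp, the sterol isomerase, by -0.01, and Dhcr7, the reductase of the last step, by -0.28. Hsd17b7, the ketosteroid reductase of the demethylation, had the one higher mean in H10 cells among these enzymes, with a difference of 0.18 (interval -0.09 to 0.45). Its difference was 0.25 without H10 replicate 1. Without the replicate 1 arrays of both lines it was 0.35, the largest in size among these enzymes there, and did not pass (adjusted p = 0.161 by limma).

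**Figure D2:**
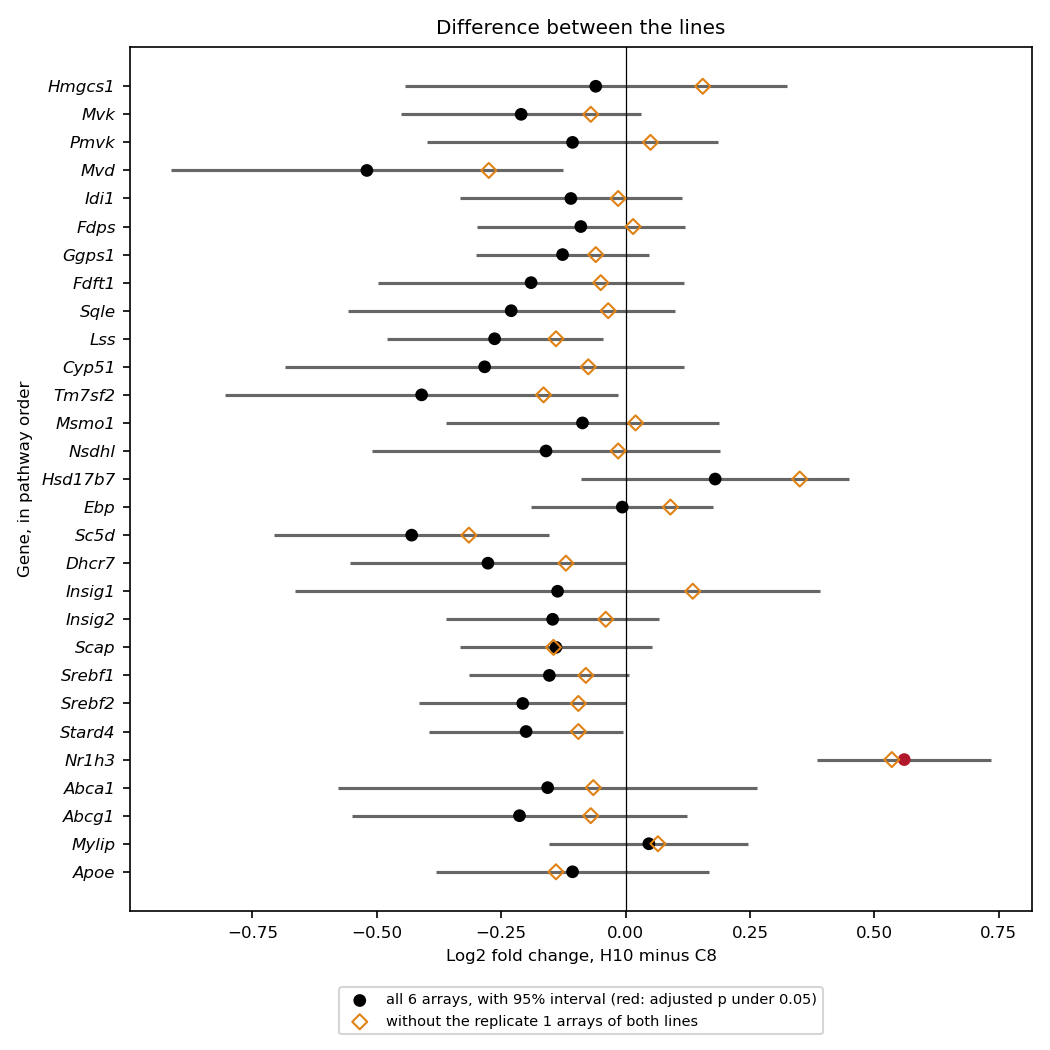
Log2 difference between H10 and C8 cells (x axis) for the 29 genes in pathway order (y axis); circles are the fit to all 6 arrays with the 95% confidence interval, red where the adjusted p was under 0.05, and orange diamonds the fit without the replicate 1 arrays. Nr1h3 alone is red, at 0.56, and for 11 of the 17 synthesis genes the diamond still lies below 0.

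The promoters of these enzymes were searched for motif letters. SREBP works together with NF-Y, which binds the CCAAT box, and with Sp1, which binds the GC box. The enzymes were chosen for a pathway that SREBP2 switches on, so such boxes are not independent of the choice. The 250 bases before each annotated start were read from RefSeq promoters of GRCm38.p6, which held 24 of the 29 genes and 14 of the 17 enzymes. The letters CCAAT, sought on both strands, were present in at least 1 promoter of all 14 enzymes and of 6 of the 10 other members, against 37.5% of all 27025 genes in the table. Per promoter the shares were 82.4% of 17 for the enzymes, 38.9% of 18 for the other members and 33.8% of all 32851. The GC box letters GGGCGG were in 13 of the 14 enzyme genes, all but Pmvk, and in 7 of the 10 other members. Among all genes their share was 35.4%. Per promoter the GC box shares were 82.4% for the enzymes, 50.0% for the other members and 32.7% of all. The sterol element letters TCACNCCAC were in Hmgcs1 alone, against 1.22% of all genes. A match of letters is not a binding site. Base composition was not accounted for, and nothing was measured on these promoters here. Of the 180 bases before the start, 4 promoters are shown: Hmgcs1 for the sterol element, Mvd for the largest difference among the enzymes, Msmo1 for 3 CCAAT boxes in one orientation, and Nr1h3 as the gene that passed. Capitals mark CCAAT or its reverse complement ATTGG and, in Hmgcs1, also the sterol element.
Hmgcs1, chr13:119690171-119690350, plus strand: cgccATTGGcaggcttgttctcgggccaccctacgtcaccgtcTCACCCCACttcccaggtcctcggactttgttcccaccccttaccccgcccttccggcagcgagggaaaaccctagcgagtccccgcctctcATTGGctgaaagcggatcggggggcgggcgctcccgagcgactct
Mvd, chr8:122443423-122443602, minus strand: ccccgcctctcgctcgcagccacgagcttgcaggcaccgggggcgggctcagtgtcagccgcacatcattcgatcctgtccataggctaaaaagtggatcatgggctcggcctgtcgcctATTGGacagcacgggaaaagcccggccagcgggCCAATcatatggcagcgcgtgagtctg
Msmo1, chr8:64733579-64733758, minus strand: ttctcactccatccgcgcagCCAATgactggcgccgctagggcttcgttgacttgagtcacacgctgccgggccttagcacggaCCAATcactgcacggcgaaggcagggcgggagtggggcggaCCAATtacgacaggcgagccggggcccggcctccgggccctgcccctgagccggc
Nr1h3, chr2:91195117-91195296, minus strand: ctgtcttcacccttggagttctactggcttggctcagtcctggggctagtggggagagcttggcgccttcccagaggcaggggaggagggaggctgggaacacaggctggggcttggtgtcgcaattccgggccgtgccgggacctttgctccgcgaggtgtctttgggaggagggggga
In Hmgcs1 the sterol element begins at position -137, counted from -1 as the last base before the start, and the reverse CCAAT boxes of this stretch begin at -176 and -45. The boxes of Mvd begin at -60 and -27 and face opposite ways. Nr1h3 has none of the 3 motifs in the 250 bases before either of its 2 annotated starts, of which the upstream one is shown.

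**Figure D3:**
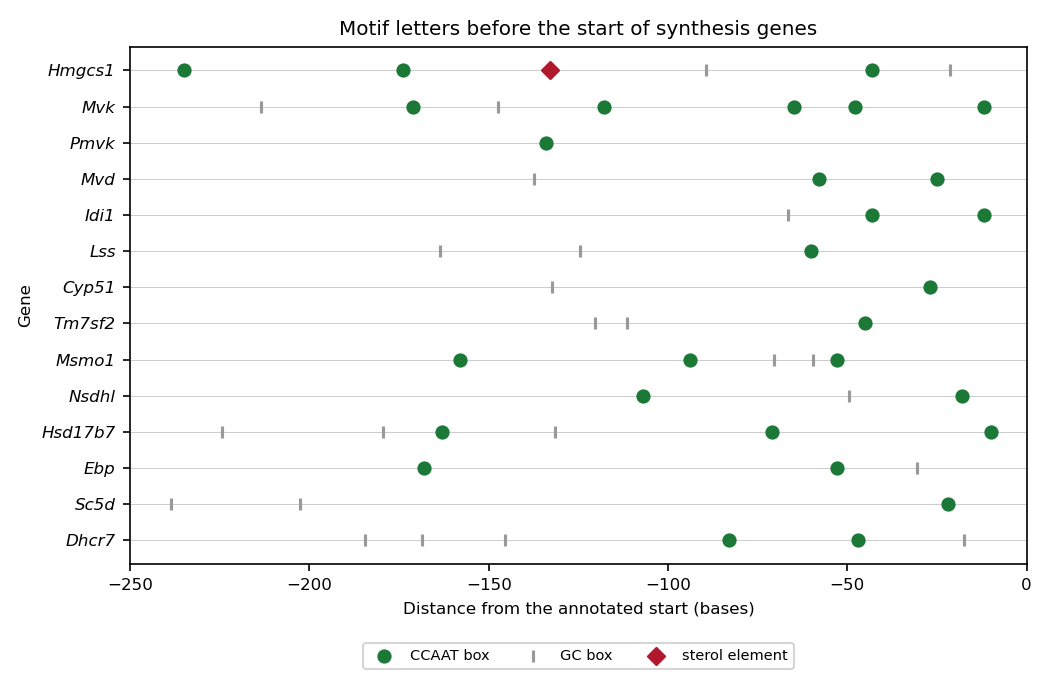
Centres of motif letters in the 250 bases before the annotated start (x axis, bases; the start is at 0) of the 14 synthesis genes with a RefSeq promoter (y axis); green circles are CCAAT boxes, grey bars GC boxes and the red diamond the sterol element. Each of the 14 genes has at least 1 green circle; Dhcr7 and Pmvk have more than 1 annotated start, drawn on 1 line.

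The 5 sensor genes had small differences between the lines, and none passed. H10 replicate 1 had gaps of -0.82 in Insig1 and -0.24 in Srebf2, below the 5th percentile of all genes, -0.23. For genes at least as bright as the dimmest member that percentile was -0.275, and Srebf2 lay above it. The gaps of -0.11 in Srebf1, -0.17 in Insig2 and 0.17 in Scap lie inside the range of most genes. Srebf2, which encodes the factor that drives synthesis, had log2 values of 11.23, 11.44 and 11.50 for H10 against 11.66, 11.55 and 11.58 for C8. The H10 arrays lay below the C8 arrays, and the difference did not pass (log2 difference -0.21, interval -0.42 to 0.00, adjusted p = 0.424 by limma). Srebf1, its relative for fatty acid synthesis, had 10.51, 10.63 and 10.61 for H10 against 10.81, 10.69 and 10.71 for C8, again without overlap (log2 difference -0.15, adjusted p = 0.449 by limma). Insig1, itself a strong SREBP target, had the widest gap of all 29 genes, with 11.33 on H10 replicate 1 against 12.16 and 12.14 on the other H10 arrays. The C8 arrays read 12.01, 12.03 and 12.00. H10 replicates 2 and 3 were thus above and H10 replicate 1 below every C8 array, and the log2 difference was -0.14 over all arrays and 0.14 without the replicate 1 arrays.

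Insig2, which is less dependent on SREBP, differed by -0.15, and the escort gene Scap by -0.14. Scap was highest on H10 replicate 1 among the H10 arrays, with 11.24, 11.11 and 11.04, and its difference was -0.15 without the replicate 1 arrays. Stard4, a cytosolic sterol carrier and SREBP2 target, had 10.18, 10.31 and 10.39 for H10 against 10.59, 10.43 and 10.46 for C8, with no overlap (log2 difference -0.20, adjusted p = 0.406 by limma). In all, 7 of the 29 genes, or 24.1%, had every H10 array below every C8 array: Mvd, Lss, Tm7sf2, Sc5d, Srebf1, Srebf2 and Stard4. Without H10 replicate 1 the differences of Srebf1, Srebf2 and Stard4 were -0.12, -0.13 and -0.14. Among all genes 12.7% lay that way, and the share among genes as bright as the 29 was not computed. Nr1h3 alone of the 29 had every H10 array above every C8 array, as did 7.74% of all genes.

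The LXR targets of efflux and uptake had small differences, and none of the 4 passed. Abca1, the exporter that loads cholesterol onto apolipoprotein A-I, had 7.57, 8.07 and 8.06 for H10 against 7.91, 8.33 and 7.93 for C8. The values lie near the array medians, and the lines overlapped (log2 difference -0.16, interval -0.58 to 0.26). Abcg1, which exports cholesterol to mature HDL, had 12.20, 12.69 and 12.70 for H10 against 12.70, 12.77 and 12.76 for C8. H10 replicate 1 was low, with a gap of -0.50, and the other H10 arrays were near the C8 arrays (log2 difference -0.21, interval -0.55 to 0.12). Apoe, the lipoprotein ligand secreted by macrophages, had 9.50, 9.70 and 9.71 for H10 against 9.54, 9.77 and 9.92 for C8, with overlap (log2 difference -0.11, interval -0.38 to 0.17). Mylip differed by 0.05 (interval -0.15 to 0.25). By limma 0 of these 4 were past an adjusted or an unadjusted p of 0.05.

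**Figure D4:**
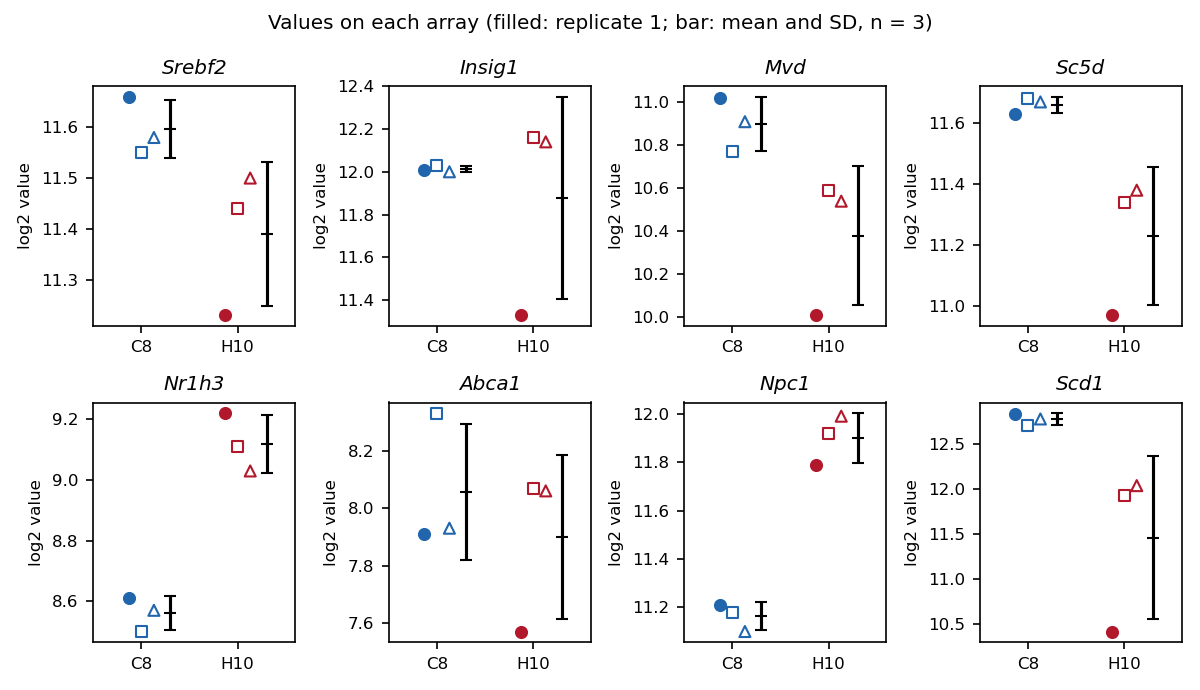
Log2 values (y axis, a scale of its own in each panel) of 6 members and of Npc1 and Scd1 on each array of C8 (blue) and H10 (red) cells; filled circles are replicate 1, and bars the mean and SD of a line (n = 3). H10 replicate 1 is far below the other H10 arrays in Insig1 and Scd1, and the H10 arrays of Nr1h3 and Npc1 all lie above the C8 arrays.

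Other genes of cholesterol handling were taken from lists made with the design. Of 16 genes of uptake and intracellular handling measured, 3 were higher in H10 cells and 0 lower by limma (6 and 2 at an unadjusted p under 0.05), against 1.85% and 1.04% of all genes. Npc1 and Npc2 encode the partners that move cholesterol out of the lysosome, and both were higher in H10 cells. Npc1 had 11.79, 11.92 and 11.99 for H10 against 11.21, 11.18 and 11.10 for C8, with no overlap (1.67-fold, log2 difference 0.74, standard error 0.07, adjusted p = 0.00657 by limma). It passed under all 15 alternatives with a test, with an adjusted p of at most 0.0486. Npc2 had 11.68, 11.64 and 11.70 for H10 against 11.21, 10.91 and 10.93 for C8, again apart (1.58-fold, log2 difference 0.66, adjusted p = 0.022 by limma). Msr1, a scavenger receptor for modified lipoproteins, was higher in H10 cells (log2 difference 0.49, adjusted p = 0.0208 by limma). Both of these calls were lost without each H10 array in turn and without C8 replicate 2 or 3, with adjusted p-values of 0.077 to 0.116 for Npc2 and 0.0674 to 0.107 for Msr1.

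Of 14 further genes of synthesis and sensing, 0 were higher and 4 lower at an unadjusted p under 0.05 by limma. Among all genes the shares were 6.1% and 7.67%. Of the 14, 1 passed the test, against 1.04% of all genes called lower. This was Acat1, the mitochondrial thiolase of ketone metabolism, which was lower in H10 cells (log2 difference -0.38, adjusted p = 0.0318 by limma). It did not pass without any 1 of the 6 arrays (adjusted p = 0.0635 to 0.155). Of 11 other LXR targets and oxysterol genes, 2 were higher and 2 lower at an unadjusted p under 0.05 by limma. Of the 11, 1 passed the test, against 1.85% of all genes called higher. It was Smpdl3a, a phosphodiesterase induced by LXR, which was higher in H10 cells (log2 difference 0.68, adjusted p = 0.0318 by limma). It passed without C8 replicate 2 and did not pass without any other single array. Ch25h, which makes an oxysterol in interferon-treated macrophages and was named after its values were seen, had means of 6.61 in H10 and 6.65 in C8 cells, under the array medians (log2 difference -0.04, interval -0.24 to 0.16).

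Of 12 genes of fatty acid synthesis, which SREBP1 governs, 12 had a lower mean in H10 cells, against 60.6% of all genes, with a median log2 difference of -0.20. The share among genes as bright as these was not computed. H10 replicate 1 was the lowest H10 array for 9 of the 12 and C8 replicate 1 the highest C8 array for 8. Without the replicate 1 arrays 9 were lower and 3 higher, with a median of -0.14. At an unadjusted p under 0.05 by limma, 0 of the 12 were higher and 6 lower, against 6.1% and 7.67% of all genes. After adjustment 1 of the 12 passed, against 1.04% of all genes called lower. This was Elovl5, an elongase of polyunsaturated fatty acids, with 11.91, 11.94 and 11.93 for H10 against 12.53, 12.39 and 12.44 for C8 (1.44-fold higher in C8 cells, log2 difference -0.53, standard error 0.06, adjusted p = 0.0113 by limma). The call was lost without H10 replicate 2 or 3 or C8 replicate 3, with an adjusted p = 0.0537 to 0.0737. H10 replicate 1 did not stand apart in it, with a gap of -0.03. Scd1, the stearoyl-CoA desaturase that SREBP1 and LXR both induce, was named after its values were seen. It had 10.42, 11.93 and 12.04 for H10 against 12.84, 12.71 and 12.78 for C8. Every H10 array was below the C8 arrays and H10 replicate 1 had a gap of -1.57. The log2 difference of -1.31 had a standard error of 0.41 (adjusted p = 0.25 by limma), and it was -0.79 without H10 replicate 1.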

How the data were processed

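Gene expression was measured on Affymetrix Mouse Gene 1.0 ST arrays, with 3 arrays per line. The log2 values were made by the authors with RMA, that is background correction, quantile normalization and a summary over each feature's probes, and were used here as deposited. Affymetrix Expression Console is named in the submitters' notes, and its version is not given in the sources used here. Of 35545 features, 21781 carried 1 gene symbol in the platform annotation, 1621 several and 12143 none. A gene was read from the feature of its symbol alone with the highest mean log2 value. Depth does not apply to arrays, and their number limits the precision. Arrays were grouped by the cell line in the labels.

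The lines were compared in R 4.3.3 using limma 3.58.1 (lmFit and eBayes, two-sided, 4 residual and 2.57 prior degrees of freedom), as the methods name it, with Benjamini-Hochberg adjustment over all features. An exact permutation of 3 against 3 arrays could not go below 0.1. The gene lists, members, rules and alternatives were chosen with earlier results of these data known. Members were all named; of the other lists, genes that passed were named, at most 4 in each direction. The script was tested on simulated data. Motif letters were sought in RefSeq promoters of GRCm38.p6. The array annotation names no build, so features have no coordinates here. Figures were drawn with matplotlib 3.10.9.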

Additional observations from a re-analysis of the deposited data

How the results depend on the processing

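The count of members called higher was 1, Nr1h3, and was 0 with the replicate block, without the replicate 1 arrays of both lines and at an FDR of 0.01. Leaving out 1 array at a time gave 0 to 1. With quantile normalization, median centring, the filter on dim features, averaging over the features of a gene, the intensity trend with a robust prior and the adjustment over 1 feature per gene it was 1. The adjusted p of Nr1h3 was 0.0045 to 0.0779 over the 15 alternatives with a test, 0.0576 with the replicate block and 0.0615 without the replicate 1 arrays. By limma the count called lower was 0 in each of these fits (1 to 8 at an unadjusted p under 0.05). The other 28 members passed under none of these, and 7 of them changed sign at least once, in 13 values in all. The median log2 difference of the members was -0.24 to -0.07 over the fits without 1 array. Folds of mean linear values moved no member by more than the SD of its line. Fitting the replicate number as a block changed the calls of Acat1, Msr1, Npc2, Smpdl3a and Elovl5 as well, with adjusted p-values of 0.109, 0.0663, 0.0638, 0.114 and 0.0651, and Npc1 kept 0.0486. Without the replicate 1 arrays Acat1, Msr1, Smpdl3a and Elovl5 did not pass. At an FDR of 0.01, Npc1 alone of these genes passed. Same-numbered arrays correlated in their deviations from the line means with r of 0.17, -0.0043 and -0.12 across features, and H10 replicate 1 correlated best with C8 replicate 1 but H10 replicates 2 and 3 with C8 replicates 3 and 2. Not every pair was over 0.1, so the numbers were not taken as a pairing, although the replicate 1 arrays of both lines stood apart together. Over all genes 369 were higher and 208 lower, against 225 and 71 with the replicate block. The counts were 310 and 78 without the replicate 1 arrays, 164 and 50 at an FDR of 0.01, and 152 to 346 and 40 to 126 without 1 array. The filter on dim features left 11256 genes, all 29 members among them. Of these brighter genes 516 (4.58%) were higher and 423 (3.76%) lower, larger shares than over all genes. Acat1 was also lost with median centring (0.0561) and Smpdl3a with quantile normalization (0.0547). The 3 arrays per line limit the precision.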
